A study of Mus musculus with 4 samples.

Results

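Brains of mice aged 5 weeks gave the nuclei studied here (cortex with hippocampus, single-nucleus RNA sequencing), and 9 myelin genes were followed through every class of nucleus: *Mbp*, *Mog*, *Mag*, *Mobp*, *Mal*, *Opalin*, *Cldn11*, *Cnp* and *Ugt8a*. They were chosen by symbol among the 32286 counted features, and 9 of 9 were found. Of the 4 libraries, 2 were labelled Sel1L flox/flox and 2 Sel1L Syn-Cre, and each came from 1 mouse. Both labels carry the floxed *Sel1L* allele. The Syn-Cre label adds a Cre recombinase driven by the Synapsin I promoter, which is active in neurons, so the gene is meant to be removed in neurons and kept in oligodendrocytes. The comparison asks how these genes stood in mice whose neurons were meant to lack SEL1L, an adaptor of the endoplasmic reticulum degradation complex.

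Myelin is the membrane that oligodendrocytes wrap around axons in the brain. Progenitors (OPCs) leave the cell cycle, pass through a premyelinating stage, and then switch on the genes for the proteins and lipids of the sheath, a switch in which the transcription factors SOX10 and MYRF act. *Mbp* and *Mobp* encode basic proteins of compact myelin, *Mog* an immunoglobulin-like protein of its outermost surface, and *Mag* a protein of the innermost layer that faces the axon. *Mal* encodes a small membrane protein of lipid rafts, *Opalin* a glycoprotein of mature oligodendrocytes, and *Cldn11* the claudin of the tight junctions between myelin layers. *Cnp* encodes a cyclic nucleotide phosphodiesterase of the uncompacted cytoplasmic channels, and *Ugt8a* the enzyme that makes galactosylceramide, a main myelin lipid.

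RefSeq upstream sequences (GRCm38.p6) were held for 8 of the 9 genes, and the bases before the start were searched on both strands for the core of SOX sites (ACAAAG, or CTTTGT on the other strand) and for the core of MYRF sites (CTGGCAC or CTGGTAC, or GTGCCAG or GTACCAG). The SOX letters lay within 250 bases upstream in 4 of 8 members (*Mobp*, *Mag*, *Cnp* and *Opalin*), against 16.5% of 32851 promoters. The MYRF letters lay there in 3 of 8 (*Mag*, *Cnp* and *Mog*), against 5.93%. A member was counted if any of its windows matched, and *Mag* had several windows, whereas the shares are of single promoters. Shown first are 3 members that the results below turn on, *Mobp* (plus strand, chr9:120149492-120149706), *Opalin* (minus strand, chr19:41077114-41077363) and *Mal* (minus strand, chr2:127656696-127656945), 5′ to 3′, with capitals on the SOX letters. *Mobp* held 6 copies, *Opalin* 1 and *Mal* 0.
Mobp: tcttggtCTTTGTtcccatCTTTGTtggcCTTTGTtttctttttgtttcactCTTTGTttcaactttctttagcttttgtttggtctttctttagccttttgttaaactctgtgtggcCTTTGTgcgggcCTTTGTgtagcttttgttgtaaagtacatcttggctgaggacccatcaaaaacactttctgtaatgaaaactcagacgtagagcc
Opalin: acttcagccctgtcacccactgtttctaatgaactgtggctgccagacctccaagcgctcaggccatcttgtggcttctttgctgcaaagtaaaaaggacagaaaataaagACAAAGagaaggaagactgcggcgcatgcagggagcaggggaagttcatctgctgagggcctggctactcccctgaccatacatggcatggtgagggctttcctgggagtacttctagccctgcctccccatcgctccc
Mal: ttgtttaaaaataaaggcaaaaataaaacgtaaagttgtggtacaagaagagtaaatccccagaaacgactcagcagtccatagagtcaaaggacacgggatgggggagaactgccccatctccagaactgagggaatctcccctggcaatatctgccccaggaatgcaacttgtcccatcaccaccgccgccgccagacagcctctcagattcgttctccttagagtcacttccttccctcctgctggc

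The MYRF letters, in capitals below, were flanked by different bases in the 3 members that held them: *Mag* (minus strand, chr7:30914914-30914942), *Cnp* (plus strand, chr11:100574847-100574875) and *Mog* (minus strand, chr17:37023464-37023492). A match of letters is a description of the window and not a binding site.
Mag: gcaggcggcccCTGGCACccagggggcag
Cnp: accgctgcttcCTGGCACtcaggtttcca
Mog: agaaatgcccaGTACCAGgcagccactgc

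The 4 libraries held 6805 to 11116 nuclei and 66145316 to 101351476 UMIs (unique molecular identifiers, each standing for 1 captured RNA molecule) after filtering, and 9 to 28 barcodes were shared between any pair of libraries. *Sel1l* itself stood at 94.7 and 89.1 counts per 1000000 UMIs of the summed nuclei (CPM) in neuron-like nuclei of the flox/flox libraries and at 152 and 128 CPM in those of the Syn-Cre libraries. Counts over a whole gene do not see an excised part, so this does not check the deletion. *Sel1l* was also higher with the Syn-Cre label in oligodendrocyte-like nuclei, which are meant to keep the gene. It was at 112 and 105 CPM there in the flox/flox and at 305 and 184 CPM in the Syn-Cre libraries, and the cause was not tested. UMIs of the Cre transgene numbered 409 in the library labelled Sel1L flox/flox replicate 1, 0 in flox/flox replicate 2, and 235 and 218 in the Syn-Cre libraries, so the first library went against its label, and the tested results of the 9 genes are also given without it. The replicate numbers went with sex in both labels, since *Ddx3y*, on the Y chromosome, stood at 48.7 and 48.7 CPM in the libraries numbered 1 and at 0 and 0.0454 CPM in those numbered 2. Nothing in the sources pairs the libraries, and with 2 per label the exact permutation test on a single value cannot give a two-sided p below 0.333.

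In whole libraries the 9 myelin genes were lower with the Syn-Cre label, at 0.129 (*Opalin*) to 0.432 (*Mobp*) of the flox/flox mean. *Mbp* was measured at 542 and 389 CPM in the flox/flox libraries and at 176 and 149 CPM in the Syn-Cre libraries. *Mobp* was measured at 130 and 91.4 CPM against 54.7 and 41.1 CPM, and *Mog* at 105 and 95.2 against 24.3 and 20.9 CPM. For each of these 3 genes both Syn-Cre libraries lay below both flox/flox libraries.

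*Mag* stood at 69.7 and 61.4 CPM in the flox/flox libraries and at 16.3 and 13.2 CPM in the Syn-Cre libraries. *Cldn11* read 39.5 and 28.5 against 8.32 and 7.29 CPM, and *Mal* 43.4 and 33.2 against 8.27 and 6.83 CPM. *Opalin*, the gene of mature oligodendrocytes, had the widest gap of the 9 genes, at 40.3 and 33.6 CPM against 5.87 and 3.67 CPM. *Cnp* was at 37.3 and 30.1 CPM against 14.1 and 13.5 CPM. *Ugt8a*, the lipid enzyme, was at 71.4 and 45.9 CPM against 16.4 and 16.9 CPM. The labels did not overlap for 9 of 9 members, while 17.2% of the 21141 genes tested were lower in both Syn-Cre libraries than in both flox/flox libraries.

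By edgeR's quasi-likelihood test on the summed counts, 9 of 9 members fell (adjusted p 0.00504 to 0.0391 over all genes tested, Benjamini-Hochberg), against a background of 0.984% of tested genes that fell. *Opalin* had a log2 fold change of -3.00 ± 0.23 (SE), *Mal* -2.40 ± 0.18, *Mog* -2.20 ± 0.12 and *Mag* -2.20 ± 0.14. *Mobp* had the smallest, -1.27 ± 0.21, next to *Cnp* at -1.34 ± 0.14. The median over the members was -2.18, and the median over all tested genes was 0.00448. Without flox/flox replicate 1 the changes ran from -2.83 to -0.95. In that fit, and in the fit without flox/flox replicate 2, no member and no other gene passed. With no filter on low counts 0 of 9 passed either (adjusted p 0.0677 to 0.182), while DESeq2 called 9 of 9, against 2.43% of genes.

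**Figure D1:**
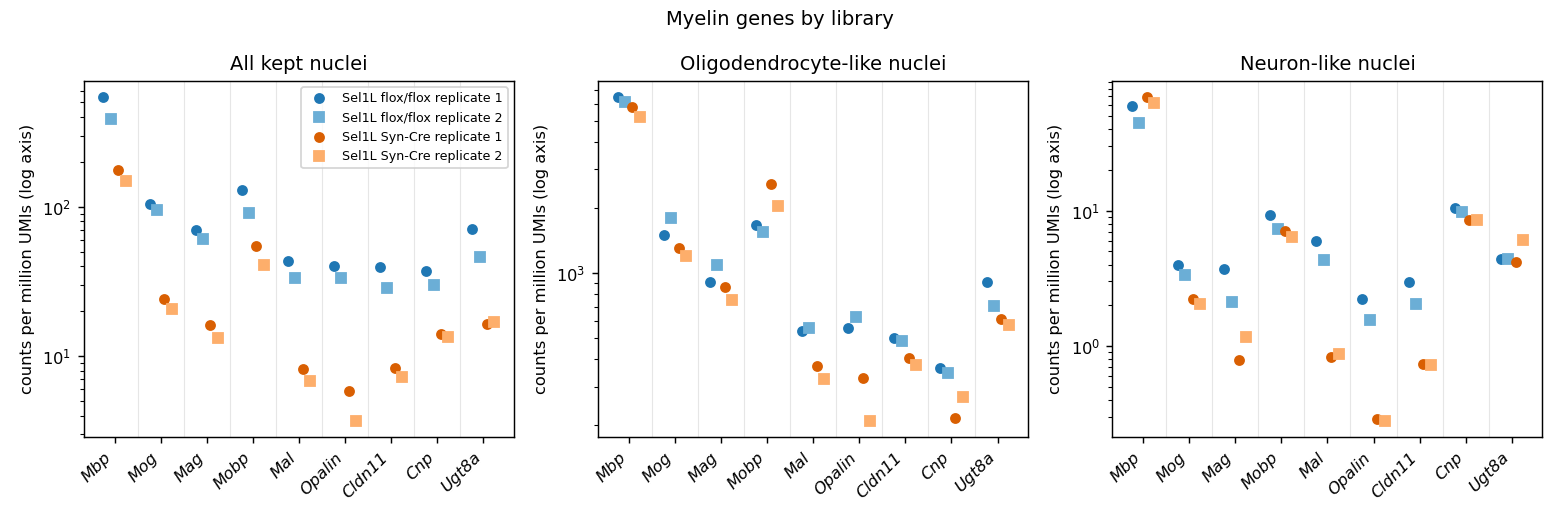
CPM of the 9 genes (log axis) in each library, for all kept nuclei, oligodendrocyte-like nuclei and neuron-like nuclei. Points are single libraries, blue for Sel1L flox/flox and orange for Sel1L Syn-Cre; heights compare libraries within a gene, not genes with each other, since CPM are not per length. The labels stand apart for 9 of 9 genes on the left, lie nearer together in the middle, and on the right are farthest apart for *Mal* and *Opalin*.

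Fewer cells of a type and less RNA per cell cannot be told apart in a whole-library value, and the number of oligodendrocytes moved with it. The class was rebuilt from markers that hold none of the 9 genes, *St18*, *Prr5l*, *Ermn* and *Aspa* among them, after clustering without the 9 genes. Oligodendrocyte-like nuclei numbered 1841 and 1172 in the flox/flox libraries and 354 and 365 in the Syn-Cre libraries, which is 16.6% (95% exact binomial interval 15.9 to 17.3) and 14.9% (14.1 to 15.7) against 4.70% (4.23 to 5.20) and 5.36% (4.84 to 5.93) of kept nuclei. The group means were 15.7% ± 1.17 and 5.03% ± 0.472 (SD, n = 2 each), a ratio of 0.32; the two-sided p of 0.333 from an exact permutation test over the libraries is the smallest it can give. Without flox/flox replicate 1 the difference of -10.7 percentage points became -9.87. Intervals cover counting error only, and the nuclei were sorted before loading, so a share is one of sorted nuclei.

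Inside oligodendrocyte-like nuclei the 9 genes were far closer between the labels: 8 stood at 0.454 (*Opalin*) to 0.877 (*Mbp*) of the flox/flox mean with Syn-Cre, *Mobp* stood at 1.43, and of the 9 only *Opalin* passed the test. *Mbp* was at 6453 and 6141 CPM in the flox/flox libraries and at 5814 and 5234 CPM in the Syn-Cre libraries. *Mog* was at 1491 and 1785 CPM against 1304 and 1198 CPM, and *Mag* at 909 and 1084 against 865 and 748 CPM. For these 3 genes of the sheath both Syn-Cre values lay below both flox/flox values, by differences that did not pass the test.

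*Opalin* was found at 558 and 625 CPM in flox/flox and at 329 and 208 CPM in Syn-Cre nuclei of the class. *Mal* was found at 539 and 559 CPM against 372 and 325 CPM. *Cnp* gave 365 and 347 CPM against 215 and 268 CPM. These genes had the largest fold differences within the class, and their Syn-Cre libraries lay under their flox/flox libraries. *Cldn11* gave 504 and 488 CPM against 406 and 378 CPM. *Ugt8a* gave 914 and 705 CPM against 616 and 576 CPM. *Mobp* stood alone on the other side, at 1662 and 1551 CPM in flox/flox and at 2562 and 2038 CPM in Syn-Cre nuclei, with no overlap. So 8 of 9 members were lower without overlap, against 18.5% of the 11449 genes tested, and *Mobp* was higher without overlap, as were 22.5% of genes.

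The edgeR test on these nuclei called 1 of 9 members, *Opalin* (log2 fold change -1.16 ± 0.22, adjusted p = 0.0307), against a background of 0.332% of tested genes that fell; 6 of 9 had an unadjusted p under 0.05, against 11.4% of genes. DESeq2 also called *Opalin* alone, against 0.288% of genes that fell. *Mal* had -0.68 ± 0.17 (adjusted p = 0.0885), *Cnp* -0.59 ± 0.16 (adjusted p = 0.124) and *Mobp* 0.50 ± 0.21 (adjusted p = 0.396). The other 5 had log2 fold changes from -0.47 (*Ugt8a*) to -0.21 (*Mbp*), with adjusted p from 0.354 to 0.829. The median over the members was -0.41, and that over all tested genes 0.00211. Summed expression of 6 neuron markers in the same nuclei was 926, 667, 741 and 831 CPM, in library order, with the labels overlapping. What part neuronal RNA had in the differences within the class was not tested. The *Opalin* call was lost without Syn-Cre replicate 2 (adjusted p = 0.0766), with doublets kept (0.0869) and with no filter on low counts (0.336), and it stood without flox/flox replicate 1 (-1.24, adjusted p = 8.7e-06). Leaving out Syn-Cre replicate 1 added *Mal* (adjusted p = 0.0382).

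**Figure D2:**
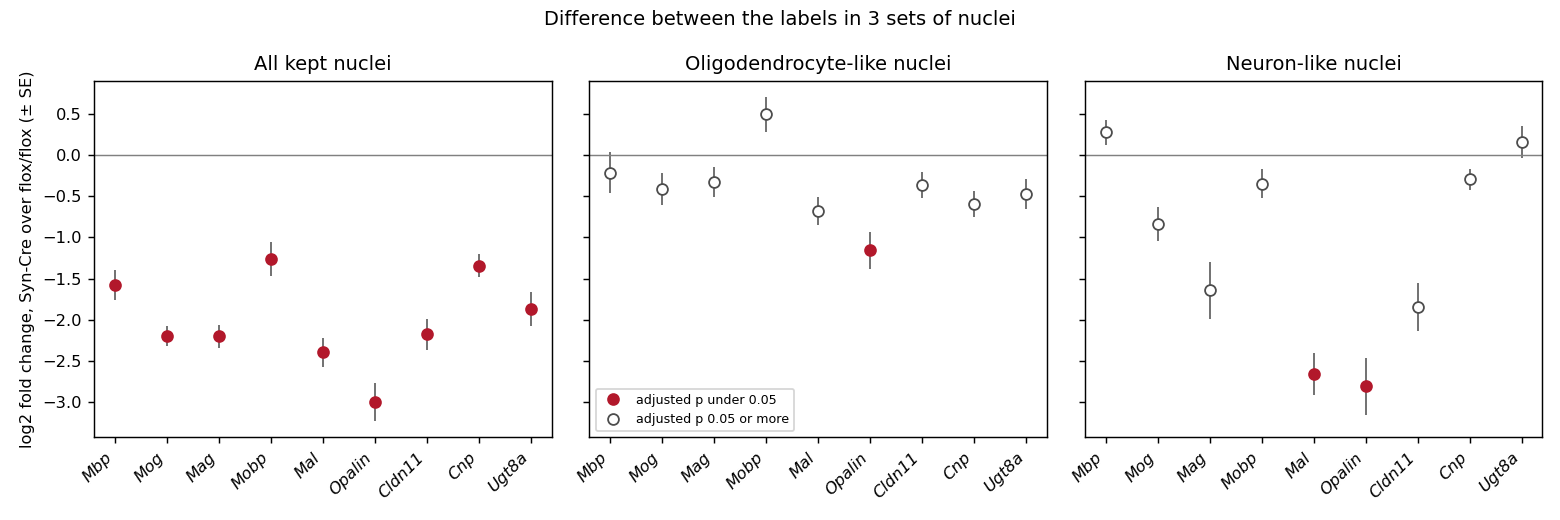
Log2 fold change of each gene, Sel1L Syn-Cre over Sel1L flox/flox (points; bars are the standard error), from edgeR in all kept nuclei, oligodendrocyte-like and neuron-like nuclei. Filled points passed an adjusted p of 0.05: 9 of 9 genes in whole libraries, *Opalin* in oligodendrocyte-like and *Mal* and *Opalin* in neuron-like nuclei.

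Depth per nucleus was nearly alike in this class, with median UMIs of 3262 and 2593.5 in flox/flox and 2728.5 and 2567 in Syn-Cre nuclei. Unthinned, a nucleus of the class held on average 49.0 and 39.3 UMIs of the 9 genes in flox/flox and 38.1 and 31.0 in Syn-Cre libraries. With each nucleus thinned at random to 1000 UMIs, which left out 1 or 2 nuclei per library, the sum came to 12.8 and 12.5 UMIs against 11.98 and 10.5. The difference of -1.42 UMIs compares with an SD of 0.738 between libraries of a label, and was -1.26 without flox/flox replicate 1 and -0.69 without Syn-Cre replicate 2. At that fixed depth 38.0% and 40.6% of flox/flox nuclei held an *Opalin* UMI, against 22.4% and 14.6% of Syn-Cre nuclei; unthinned the shares were 71.0% and 69.9% against 44.4% and 31.2%. The matching shares for *Mobp* were 73.2% and 69.2% against 83.6% and 78.8% thinned, and 95.5% and 89.5% against 98.0% and 92.3% unthinned. At least 98.9% of nuclei of the class held an *Mbp* UMI in each library after thinning. In the make-up of the 9-gene sum, *Mobp* took 12.4% and 11.7% in flox/flox and 20.5% and 18.6% in Syn-Cre nuclei, *Opalin* 4.16% and 4.70% against 2.63% and 1.89%, while *Mbp* took 46.2% to 48.2% in each of the 4 libraries.

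**Figure D3:**
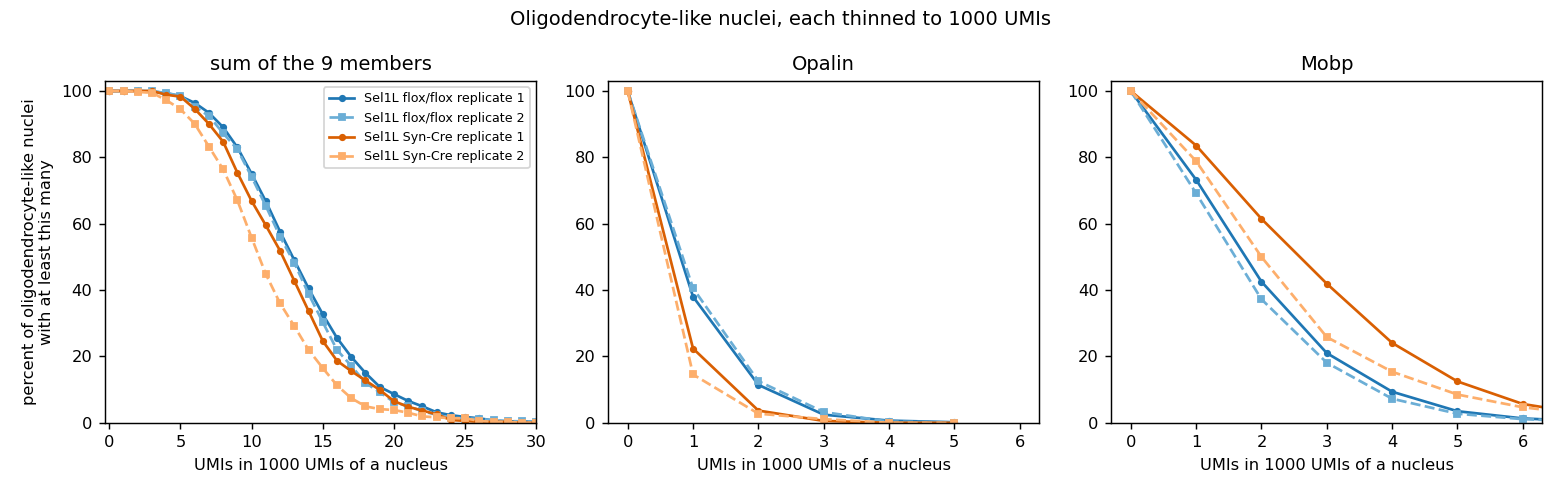
Percent of oligodendrocyte-like nuclei that held at least a given number of UMIs of the 9 genes together, of *Opalin* and of *Mobp*, after each nucleus was thinned to 1000 UMIs. Lines are the 4 libraries (blue flox/flox, orange Syn-Cre, dashed for replicate 2). For *Opalin* both orange lines lie lower at 1 UMI or more, at 22.4% and 14.6% against 38.0% and 40.6%, and for *Mobp* both lie higher.

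The 9 genes were not at a common level in the stage of the lineage before the oligodendrocytes. The clustering of integrated libraries gave no cluster of the premyelinating stage, so its nuclei were taken from a cluster found without integration, and 177 of them had lain in the OPC-like and 13 in the oligodendrocyte-like cluster. These nuclei (markers *Bcas1*, *Enpp6*, *Itpr2*, *Tcf7l2*, *Gpr17*, *Bmp4* and *Rras2*) numbered 115 and 63 in the flox/flox libraries and 9 and 3 in the Syn-Cre libraries, too few in the latter for a test. In the flox/flox libraries *Mbp* in these nuclei was already at 103.2% and 98.9% of its CPM in oligodendrocyte-like nuclei of the same library. *Cnp* was at 73.7% and 99.99%, *Mag* at 79.4% and 64.8%, *Ugt8a* at 58.8% and 83.4%, *Cldn11* at 66.4% and 58.7%, and *Mobp* at 64.1% and 56.8%. *Mog*, *Opalin* and *Mal* stood apart from these, *Mog* at 16.97% and 12.6%, *Opalin* at 17.2% and 8.91% and *Mal* at 5.83% and 7.12%. A set of early genes (*Mbp*, *Cnp*, *Mag*, *Ugt8a*, *Cldn11*, *Mobp*) and a set of late genes (*Mog*, *Opalin*, *Mal*) thus did not overlap in these libraries, a grouping made after the values were seen.

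OPC-like nuclei, the progenitor stage, held *Ugt8a* and *Cnp* at a larger part of their oligodendrocyte-like levels than the other members. They numbered 399 and 360 in the flox/flox and 279 and 246 in the Syn-Cre libraries, 4.08% ± 0.699 and 3.66% ± 0.061 (SD, n = 2 each) of kept nuclei (p = 1, exact permutation test). *Ugt8a* was at 16.7% and 20.5% of the oligodendrocyte-like CPM in flox/flox and at 21.4% and 23.9% in Syn-Cre OPCs, and an *Ugt8a* UMI was found in 35.8% to 44.1% of them. *Cnp* was at 8.39% to 11.9% in the 4 libraries. The other 7 genes were at 0% to 3.64%, with at most 155 UMIs in a library.

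Outside the oligodendrocyte lineage, the 9 genes were measured at low levels in neuron-like nuclei, and *Mal* and *Opalin* fell there while *Mbp*, *Cnp*, *Mobp* and *Ugt8a* had log2 fold changes between -0.34 and 0.28 that did not pass the test. Droplets also catch RNA that leaked from other cells, so a UMI in a neuron does not show that the neuron made it. *Mal* was at 5.98 and 4.33 CPM in flox/flox neurons (525 and 264 UMIs) and at 0.826 and 0.867 CPM in Syn-Cre neurons (49 and 53 UMIs). *Opalin* was at 2.23 and 1.56 CPM (196 and 95 UMIs) against 0.286 and 0.278 CPM (17 and 17 UMIs). *Cldn11* was at 2.99 and 2.03 against 0.741 and 0.72 CPM. For these 3 genes both Syn-Cre libraries lay far below both flox/flox libraries.

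*Mag* was at 3.68 and 2.12 CPM in flox/flox neurons and at 0.792 and 1.16 CPM in Syn-Cre neurons, and *Mog* at 3.98 and 3.36 against 2.24 and 2.04 CPM. *Mobp* was at 9.24 and 7.28 CPM against 7.09 and 6.44 CPM. *Cnp* was at 10.4 and 9.71 against 8.56 and 8.49 CPM. *Mbp* was the exception, at 59.7 and 44.5 CPM against 69.0 and 62.3 CPM, higher in both Syn-Cre libraries. With doublets kept, though, its log2 fold change was -0.12, and the cause was not tested. *Ugt8a* overlapped between the labels, at 4.40 and 4.38 against 4.16 and 6.05 CPM, and its direction also turned with doublets kept (-0.44) and without Syn-Cre replicate 2 (-0.11). In all, 7 of 9 members were lower without overlap, against 15.7% of the 20130 genes tested in neurons, and *Mbp* was higher without overlap, as were 28.5% of genes.

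By edgeR, *Mal* (log2 fold change -2.67 ± 0.26, adjusted p = 0.0222) and *Opalin* (-2.81 ± 0.35, adjusted p = 0.0358) fell in neuron-like nuclei, 2 of 9 members against a background of 0.0298% of tested genes that fell. *Cldn11* had -1.85 ± 0.30 (adjusted p = 0.0711), *Mag* -1.64 ± 0.34 (0.126) and *Mog* -0.83 ± 0.21 (0.171). *Mbp* had 0.28 ± 0.16 (0.519) and *Ugt8a* 0.16 ± 0.20 (0.78). The median over the members was -0.83 and over all tested genes 0.00133. DESeq2 called 4 of 9 (*Mal*, *Opalin*, *Cldn11* and *Mag*), against 0.82% of genes that fell. In edgeR 0 of 9 passed with doublets kept, with 7 of 9 at an unadjusted p under 0.05, against 2597 of 20440 genes. With no filter on low counts edgeR also called 0 of 9, with 6 of 9 at an unadjusted p under 0.05, against 2803 of 27235 genes. Without flox/flox replicate 1 *Mal* alone passed (-2.37, adjusted p = 0.0452; *Opalin* 0.0806), and without Syn-Cre replicate 2 likewise (*Opalin* 0.0525).

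Between oligodendrocyte-like nuclei and neurons the 9 genes were not kept in a single ratio. As a percent of the oligodendrocyte-like CPM of the same library, *Cnp* in neurons was at 2.85, 2.79, 3.99 and 3.17, in library order, and *Mog* at 0.267, 0.188, 0.172 and 0.171. *Mal* went from 1.11 and 0.775 in flox/flox to 0.222 and 0.266 in Syn-Cre, and *Opalin* from 0.40 and 0.249 to 0.0872 and 0.134. *Mbp* was at 0.925 and 0.724 against 1.19 and 1.19, and *Ugt8a* at 0.481 and 0.621 against 0.675 and 1.05. The order of the genes by this percent was thus led by *Cnp* in each library, and *Mal*, next after it in both flox/flox libraries, came after *Mbp*, *Ugt8a* and *Mobp* in both Syn-Cre libraries. *Mbp* made up 58.2% and 56.1% of the 9-gene UMIs of flox/flox neurons and 73.6% and 70.5% of those of Syn-Cre neurons. What part leaked RNA had in these values was not tested.

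**Figure D4:**
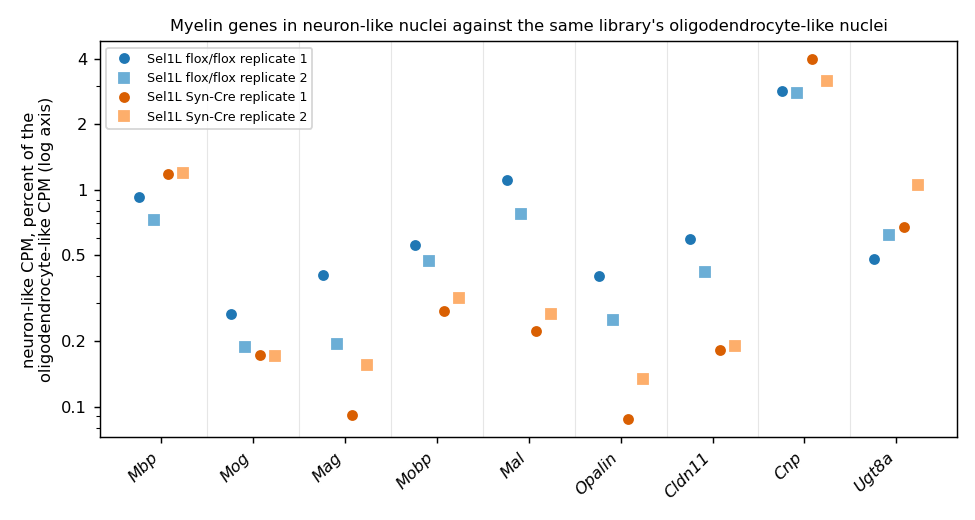
CPM of each gene in neuron-like nuclei as a percent of its CPM in oligodendrocyte-like nuclei of the same library (log axis); points are the 4 libraries. *Cnp* lies highest in each library, between 2.79% and 3.99%, and *Mal* drops from 1.11% and 0.775% in flox/flox to 0.222% and 0.266% in Syn-Cre.

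*Cnp* is the sole member whose gene overlaps another counted gene. Its last 8912 bases (chr11:100582818-100591729, GRCm38, GENCODE vM21) lie across *Dnajc7*, which runs on the opposite strand and was at 84.55, 78.4, 79.5 and 84.7 CPM in neurons and 142, 130.5, 154.5 and 157 CPM in oligodendrocyte-like nuclei. The sources do not give the strand setting of the counting, and whether reads of *Dnajc7* entered the *Cnp* counts was not tested.

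Beside the fewer oligodendrocyte-like nuclei of the Syn-Cre libraries, neurons held a larger share of the 9-gene UMIs there. Oligodendrocyte-like nuclei held 82.4% and 83.1% of these UMIs in flox/flox and 62.2% and 62.6% in Syn-Cre libraries, and neuron-like nuclei 8.23% and 8.72% against 25.6% and 29.9%. *Cnp* had the largest share in neurons of the 9 genes, with 24.1% and 28.7% of its UMIs in flox/flox neurons and 53.9% and 57.9% in Syn-Cre neurons. For *Opalin* the share in neurons ran from 4.13% to 6.996% in the 4 libraries, and for *Mag* from 3.07% to 8.13%.

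The test of whether the label's effect differed between oligodendrocyte-like and neuron-like nuclei called 0 of 9 members in edgeR, as it called 0% of the 19474 genes tested. At an unadjusted p under 0.05 it found 8 of 9 members, all but *Mog*, against 9.94% of genes. The difference in log2 fold change, neuron-like minus oligodendrocyte-like, was -1.77 ± 0.24 for *Mal* (adjusted p = 0.134), -1.41 ± 0.33 for *Opalin*, -1.26 ± 0.23 for *Cldn11*, 0.80 ± 0.26 for *Ugt8a* and 0.70 ± 0.25 for *Mbp*. DESeq2 called 2 of 9, *Mal* and *Cldn11*, against 0.436% of genes. Without flox/flox replicate 1 edgeR called no member and no other gene. The same test against microglia- or macrophage-like, astrocyte-like and OPC-like nuclei called 0 of 27 in edgeR and in DESeq2. The 27 include members with too few counts to be tested within the second class, let in by their oligodendrocyte-like counts. They were *Opalin* and *Ugt8a* in microglia- or macrophage-like, *Mog*, *Opalin* and *Ugt8a* in astrocyte-like, and *Mag* and *Opalin* in OPC-like nuclei. At an unadjusted p under 0.05 edgeR had 6 of 9 members against 7.84% of genes for the microglia, 3 of 9 against 9.6% for the astrocytes and 0 of 9 against 8.96% for the OPCs; the shares of genes called were 0.067%, 0.302% and 0.469% by edgeR and 0.243%, 0.557% and 0.167% by DESeq2.

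Among the 10 neuronal subtypes named from markers with enough nuclei, *Mal* fell in 3 and *Ugt8a* in 1, and no other tested member passed. Many members had too few counts to be tested, *Mal* among them in CA3-, Lamp5-, Pvalb-, Sst- and Vip-like neurons. *Opalin* was tested in L2/3 IT-like neurons alone (log2 fold change -4.78 ± 0.89, edgeR adjusted p = 0.0517). Clusters nearest to L4/5 IT and L5/6 IT neurons held under 3 markers and stayed unnamed. Unnamed clusters held 2711 of 6999, 2132 of 5283, 1998 of 5095 and 2078 of 5215 neuron-like nuclei, in library order, and were not tested as a subtype. *Mal* fell in DG-like granule neurons (70 and 19 UMIs in flox/flox, 3 and 4 in Syn-Cre; log2 fold change -2.98 ± 0.57, edgeR adjusted p = 0.00873; background 1.87% of tested genes that fell). It fell in L6 CT-like neurons (57 and 26 against 5 and 4 UMIs; -3.04 ± 0.48, adjusted p = 0.0205; background 0.106%) and in L2/3 IT-like neurons (52 and 43 against 8 and 8 UMIs; -2.42 ± 0.36, adjusted p = 0.0379; background 0.151%). Without flox/flox replicate 1 the DG-like and L6 CT-like calls were lost (adjusted p 0.169 and 0.0523), and the L2/3 IT-like call was lost without Syn-Cre replicate 1 (0.0741), without Syn-Cre replicate 2 (0.13) and when nuclei were named without integration (0.0588). In each of the other 7 subtypes *Mal* had 5 to 37 UMIs in a flox/flox library and 0 to 6 in a Syn-Cre library. In the 3 subtypes where *Mal* fell, only the flox/flox libraries held enough of its counts for the filter on low counts. These 3 calls thus rest on a gene let into the test through the label where it was high. Whether the effect on *Mal* differed between subtypes was not tested.

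*Ugt8a* fell in Pvalb-like interneurons (22 and 18 UMIs, 6.14 and 7.37 CPM, in flox/flox; 3 and 1 UMIs, 1.28 and 0.409 CPM, in Syn-Cre; log2 fold change -3.00 ± 0.60, edgeR adjusted p = 0.0136; background 2.04%). That call stood when any of the 4 libraries was left out (adjusted p 0.0076 to 0.0484) and was lost with no filter on low counts (0.0766), and DESeq2 gave the gene no adjusted p. In Pvalb-like interneurons *Ugt8a* met the filter on low counts through the flox/flox libraries alone, since its Syn-Cre counts were too low. *Ugt8a* was otherwise most seen in L2/3 IT-like neurons, at 7.71 and 8.21 CPM in flox/flox and 10.2 and 15.2 CPM in Syn-Cre (0.66 ± 0.22, edgeR adjusted p = 0.249). *Mbp* in the same L2/3 IT-like neurons was at 59.3 and 40.3 CPM against 95.5 and 79.5 CPM (0.79 ± 0.20, edgeR adjusted p = 0.133). DESeq2 called this rise (adjusted p = 0.029, background 0.667% of genes that rose). Without flox/flox replicate 1 its log2 fold change was 1.14. In Lamp5-like interneurons *Mbp* went the other way, at -1.05 ± 0.37 (edgeR adjusted p = 0.294) and at -1.50 without flox/flox replicate 1. *Opalin* in L2/3 IT-like neurons was at -4.87 without that library. In 6 subtypes no member passed with all 4 libraries (CA1-, CA3-, L5/6 NP-, Lamp5-, Sst- and Vip-like, with backgrounds of 0.00778%, 0.0328%, 0.162%, 0.479%, 8.47% and 0.0269% of tested genes). *Mbp* ran in these 6 from 11.3 to 51.7 CPM and *Cnp* from 4.42 to 16.6 CPM over the libraries. In Vip-like interneurons *Mog* had 1 UMI more than *Cnp* in all, at 12.7 and 13.5 CPM in flox/flox and 4.94 and 5.22 CPM in Syn-Cre. The top 1% of Vip-like nuclei by summed member UMIs held 33.3% and 36.8% of these UMIs in flox/flox and 10% and 5.13% in Syn-Cre. What part these few nuclei had in the *Mog* levels was not tested. In DG-like neurons *Mbp* was at 97.2 and 79.4 CPM against 81.3 and 72.7 CPM.

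**Figure D5:**
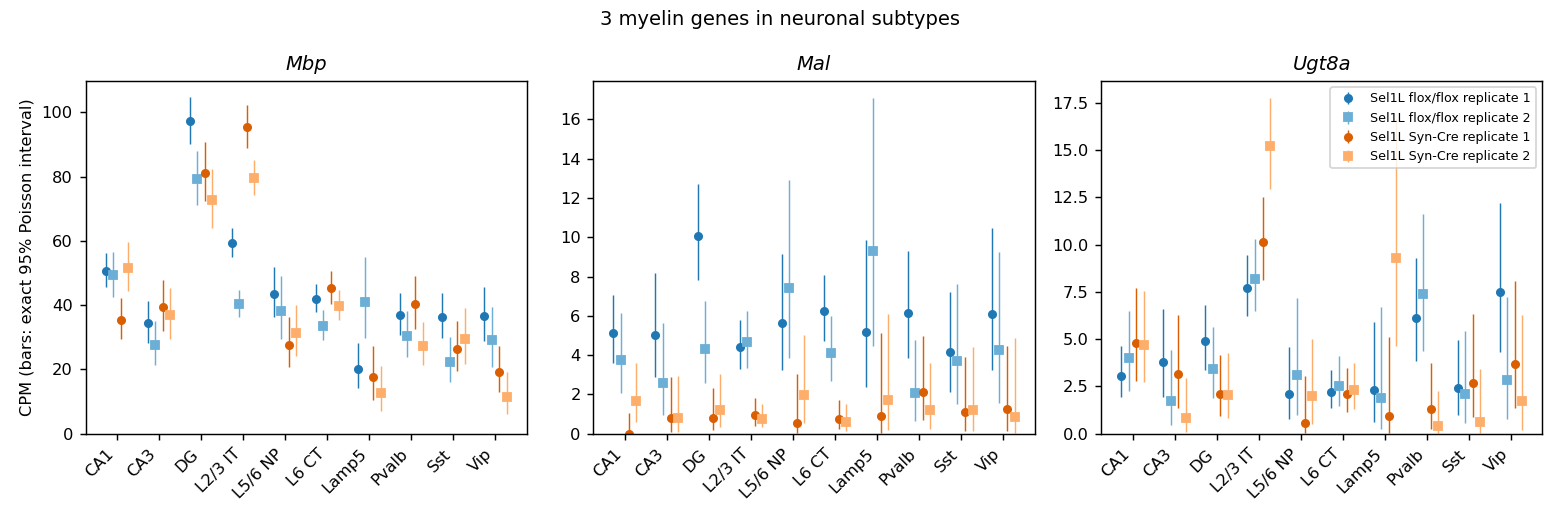
CPM of *Mbp*, *Mal* and *Ugt8a* in 10 neuronal subtypes; points are libraries and bars are exact 95% Poisson intervals, which cover counting error only. *Mal* is at or under 2.14 CPM in Syn-Cre libraries of each subtype, *Mbp* is highest in DG-like neurons of both flox/flox and in L2/3 IT-like neurons of both Syn-Cre libraries, and *Ugt8a* in L2/3 IT-like neurons of all 4.

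The vascular nuclei were a mixed cluster: it was named from endothelial markers and led by *Flt1* and *Slco1a4*, but its leading genes also held *Slc6a20a*, *Cped1* and *Colec12*, and without integration 241 of its nuclei were named endothelial-like and 365 pericyte- or fibroblast-like. In the OPC, astrocyte, microglia and vascular classes edgeR called 0 of the 26 member and class pairs tested, with 11 at an unadjusted p under 0.05. DESeq2 called 0, with 7 at an unadjusted p under 0.05. Over all genes DESeq2 had 606 of 11163, 664 of 11835, 241 of 10698 and 99 of 8457 at that unadjusted p, in the same class order. The shares of genes called were 3.31% of tested genes in OPC-like, 1.25% in astrocyte-like, 0.0841% in microglia- or macrophage-like and 0% in vascular nuclei by edgeR, and 1.37%, 0.625%, 0.0935% and 0.0355% by DESeq2; edgeR's shares at an unadjusted p under 0.05 were 13%, 13.1%, 8.37% and 5.76%. In microglia- or macrophage-like nuclei 9 of 9 members were lower in both Syn-Cre libraries. *Opalin* and *Ugt8a* had too few counts to be tested there, and of the genes that were tested 16% were lower in this way. *Mbp* there was at 126 and 69.6 CPM in flox/flox and 58.9 and 41.2 CPM in Syn-Cre (log2 fold change -1.01 ± 0.30, adjusted p = 0.429), and *Cnp* at 34.9 and 37.0 against 30.0 and 15.6 CPM (-0.65 ± 0.33, adjusted p = 0.636). *Mal*, named here after its values were seen, was at 34.3 and 19.8 against 3.33 and 4.26 CPM (-2.89 ± 0.52, adjusted p = 0.144). Microglia are not known to make myelin, and an *Mbp* UMI was found in 18.1%, 11.9%, 9.91% and 7.58% of them at a median depth of 1745.5 to 1913 UMIs; in neuron-like nuclei, at 10001 to 10724 UMIs, the shares were 42.9%, 33.9%, 41.6% and 39.3%.

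Astrocyte-like nuclei held *Mbp* at 509 and 215 CPM in flox/flox and 218 and 320 CPM in Syn-Cre, and *Mobp* at 149 and 71.7 against 85.9 and 118 CPM, with the labels overlapping for both. The top 1% of these nuclei by 9-gene UMIs held 28.3%, 7.06%, 11.5% and 39.8% of the class total, in library order. OPC-like nuclei held *Ugt8a* at 152 and 145 against 132 and 137 CPM (log2 fold change -0.15 ± 0.16, edgeR adjusted p = 0.804) and *Mbp* at 89.5 and 58.1 against 37.1 and 97.7 CPM. The mixed vascular nuclei, only 37 in flox/flox replicate 2, held *Mbp* at 334 and 365 against 214 and 135 CPM, *Mal* at 83.9 and 65.2 against 97.4 and 67.5 CPM and *Mobp* at 113 and 91.2 against 79.7 and 56.7 CPM. *Mal* was thus at 11.7% to 26.2% of its oligodendrocyte-like CPM in this mixed cluster, above its percent in neurons in each library. Without flox/flox replicate 2, 12 pairs of member and class passed, 7 of them in microglia- or macrophage-like nuclei, where 287 of 10967 genes then passed, 4 in astrocyte-like nuclei (532 of 12876 genes) and 1 in OPC-like nuclei (509 of 11332). With doublets kept 13 pairs passed, 5 of them in microglia- or macrophage-like nuclei (23 of 11896 genes), 6 in OPC-like (358 of 11764) and 2 in astrocyte-like nuclei (21 of 12825), and without flox/flox replicate 1, 0 pairs passed.

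Of 44 other genes of myelin and its lineage, 30 fell in whole libraries, 0 rose and 14 did not pass (edgeR; median log2 fold change -1.41), against 208 of 21141 genes (0.984%) that fell. Without flox/flox replicate 1 no gene passed. In oligodendrocyte-like nuclei 2 of 44 fell, 1 rose and 41 did not pass, with a median of -0.28. Of the 11449 genes tested there, 38 (0.332%) fell and 99 rose. Those that fell were *Pllp*, plasmolipin of the myelin membrane (-0.87 ± 0.17, adjusted p = 0.0292), and *Car2*, a carbonic anhydrase (-0.81 ± 0.16, adjusted p = 0.035). *Itpr2*, an inositol trisphosphate receptor and a marker of the premyelinating stage, rose (1.71 ± 0.26, adjusted p = 0.00954). The summed CPM of the 7 premyelinating markers in the same nuclei was 988 and 893 in flox/flox and 1004 and 864 in Syn-Cre, so the list as a whole overlapped between labels. In neuron-like nuclei 0 of 44 passed, with 39 of 44 negative and a median of -0.47. The median over all genes tested in neuron-like nuclei was 0.00133.

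Across the 64 sums of nuclei of 16 classes and subtypes in 4 libraries, the CPM of each member followed the mean of the others with a Pearson r on the log2 scale of 0.801 (*Ugt8a*) to 0.942 (*Opalin*). Among the genes that ran most like the mean of the 9 were *Nkx6-2* (r = 0.949), *Tmem98* (0.944), *Adamts4* (0.926) and *Ermn* (0.924), the last of which is also a marker that named the class. These sums share libraries, depth and leaked RNA, so the values describe likeness in these nuclei and carry no test.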

How the data were processed

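The authors aligned and counted 10x 3′ reads (v3 chemistry) with Cell Ranger 6.1.0 on GRCm38 and deposited raw UMI counts per gene and barcode; the strand and intron settings are not given in the sources used here. Nuclei with more than 600 genes and under 5% mitochondrial counts were kept, and Scrublet doublets (0.8% per 1000 nuclei) were removed. The 9 genes were taken out before libraries were integrated and clustered in Seurat 5.3.0 (17 dimensions, resolution 0.2, neurons 0.4). A cluster was named from at least 3 detected markers of a list and is called "-like". Premyelinating nuclei alone came from the Leiden clustering without integration. Counts were summed per class and library and tested in edgeR 4.0.16 (quasi-likelihood F test, TMM, filterByExpr, prior count 0.125) with Benjamini-Hochberg adjustment over all genes tested and a threshold of 0.05, in classes with at least 20 nuclei in each library. Fold changes are Syn-Cre over flox/flox, and differences between classes come from an interaction term with a term per library. Where leaving out a library left 1 in a label, that library was assumed to vary like those of the other label. Thinning kept 1000 random UMIs per nucleus (Python 3.11.15, scanpy 1.11.5, R 4.3.3). Alternatives were DESeq2 1.42.0, its size factors in edgeR, no filter on low counts, the replicate number as a block, doublets kept, names from Leiden clustering without integration, sums thinned to the smallest library, 2000 UMIs in thinning, and each library left out; leaving out libraries for the thinned levels was added after the data were seen. On simulated data of the real means, 200 genes were changed by 2 on the log2 scale at a fixed dispersion of 0.02. The edgeR step recovered 194 of 197 tested in whole libraries, 171 of 193 in oligodendrocyte-like and 193 of 196 in neuron-like nuclei. Smaller changes, such as those of the 9 genes in oligodendrocyte-like nuclei, were not simulated, so their recovery is not known.

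The members, lists and tests were chosen with earlier results of these data known. Named were the 9 members with every library's value in whole libraries, oligodendrocyte-like and neuron-like nuclei; elsewhere those past the threshold or, with none, the 2 with most UMIs; the 5 genes most like them, of which 1 is not reported here; and, of 44 other myelin genes, up to 6 past the threshold in oligodendrocyte-like nuclei. Each library came from a separate mouse, so p-values rest on the spread between 2 mice per label. EdgeR draws each gene's spread towards a trend over all genes, and the 2 mice of a label also differed in sex by *Ddx3y*.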

Additional observations from a re-analysis of the deposited data

How the results depend on the processing

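Of 418 values of single genes or classes recomputed under alternatives, 350 kept direction and side of the threshold, 48 kept direction only and lost the threshold, 14 gained it and 6 reversed; of the counts of members and the shares and levels, 55 recomputed values stayed within 1.5 times or the spread between libraries and 26 moved. With no filter on low counts 0 members passed in whole libraries, 0 in oligodendrocyte-like nuclei, 0 in neuron-like nuclei and 0 in neuronal subtypes, and in whole libraries 0 of 27712 genes passed. With doublets kept the counts were 0 in oligodendrocyte-like and 0 in neuron-like nuclei, 13 in the other glial and vascular classes, 15 in subtypes and 3 for a difference between classes. DESeq2 gave 4 in neuron-like nuclei and 2 for a difference between classes. Leaving out each library gave 0 to 9 members in whole libraries, 0 to 2 in oligodendrocyte-like nuclei, 1 to 2 in neuron-like nuclei, 0 to 12 in the other classes, 4 to 8 in subtypes and 0 for a difference between classes. The cause was not tested for any of these.

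Values reversed were *Mbp* in neuron-like nuclei with doublets kept (log2 fold change -0.12), *Ugt8a* there with doublets kept (-0.44) and on leaving out each library (-0.11 to 0.38), the *Mog* difference between neuron-like and oligodendrocyte-like nuclei (-0.45 to 0.0192 on leaving out each library), and the OPC-like share (1.63 percentage points higher with Syn-Cre among nuclei other than neurons, and -0.92 to 0.0687 points on leaving out each library). The summed thinned level in neuron-like nuclei differed by -0.0344 UMIs per 1000 with doublets kept, against -0.00386.

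The replicate numbers do not say that libraries are paired. With the replicate block 9 members passed in whole libraries, 5 in oligodendrocyte-like nuclei (*Opalin*, *Mal*, *Cnp*, *Ugt8a* and *Mobp*), 5 in neuron-like nuclei, 2 in the other classes, 9 in subtypes and 2 for a difference between classes; this fit also raised the calls over all genes, from 319 to 1615 of 21141 in whole libraries, from 137 to 604 of 11449 in oligodendrocyte-like and from 34 to 775 of 20130 in neuron-like nuclei. Deviations of same-numbered libraries from their label's mean correlated at r = 0.295, 0.184 and 0.241 in whole libraries, oligodendrocyte-like and neuron-like nuclei, and number and sex cannot be told apart.

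Depth limited the low members most: in neuron-like nuclei of the Syn-Cre libraries *Opalin* rested on 17 and 17 UMIs, and in premyelinating nuclei all 9 genes rested on 769 and 18 UMIs. Intervals and thinned values cover counting error only.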
